A study of Mus musculus with 8 samples.

Results

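Zic genes were examined in the periventricular tissue of adult mice with and without *Lrig1*. The members were *Zic1*, *Zic2*, *Zic4* and *Zic5*, taken by gene name from a table of 54307 genes, of which 17669 had enough reads to be tested. All 4 members were among the genes tested, and other members of the family were not analysed here. Tissue lining the lateral ventricle, which contains the ventricular-subventricular zone (V-SVZ), was dissected from 1 hemisphere of each mouse, and polyA RNA was sequenced in bulk. The study compared 4 *Lrig1* KO with 4 WT mice to ask which signalling pathways change when LRIG1, a membrane protein with leucine-rich repeats that restrains growth factor receptors, is lost.

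All 8 mice were 8 weeks old and on the 129-Elite strain background, labelled as 129. The KO mice carried a CreERT2 insertion in *Lrig1* on both alleles and therefore lacked the gene constitutively, in every tissue and from conception onwards. The WT mice were littermate controls with both alleles intact, but the sources used here do not give the litter of each mouse. The WT group held 3 females and 1 male, and the KO group 2 females and 2 males. The dissected tissue was a mixture of cells, and bulk RNA cannot separate fewer cells of a type from less RNA per cell.

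Zic genes encode zinc finger transcription factors whose DNA-binding fingers resemble those of the GLI proteins, the effectors of hedgehog signalling. During development they are expressed along the dorsal midline of the neural tube and in the medial telencephalon, from which the septum arises. In the adult forebrain, Zic genes are known as marks of the septum and of the medial, or septal, wall of the lateral ventricle, where stem cells give rise to particular olfactory bulb interneurons. The striatal, or lateral, wall is known to express them less. Meningeal cells and cerebellar granule neurons are other known sites of Zic expression. The genes lie in head-to-head pairs. *Zic1* is required for normal development of the cerebellum, a role that it shares with *Zic4*. *Zic2* is known for its part in forming the forebrain midline, and *Zic5* for its part in neural crest and neural tube development.

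*Zic1* and *Zic4* lay on opposite strands of chromosome 9 and *Zic2* and *Zic5* on opposite strands of chromosome 14, in the GRCm38 annotation of Gencode M21. The annotated bodies of *Zic1* and *Zic4* overlapped by 3398 bases, whereas 9757 bases separated *Zic2* from *Zic5*. The sources used here do not state whether reads were assigned by strand, so reads from the overlap cannot be told apart by strand. RefSeq promoter windows on GRCm38.p6 were matched for *Zic1*, *Zic4* and *Zic5*. The sequence upstream of 1 gene from each pair is shown, with each CG dinucleotide in capitals. Whether the other gene of the pair is read from the same bases was not tested. Each sequence runs 5′ to 3′ on the strand of its gene, from 250 to 51 bases before the start of the gene. The *Zic1* sequence is chr9:91365819-91366018 on the minus strand, inside the annotated body of *Zic4* but outside its exons. The *Zic5* sequence is chr14:122465709-122465908 on the minus strand, outside any annotated gene.
Zic1: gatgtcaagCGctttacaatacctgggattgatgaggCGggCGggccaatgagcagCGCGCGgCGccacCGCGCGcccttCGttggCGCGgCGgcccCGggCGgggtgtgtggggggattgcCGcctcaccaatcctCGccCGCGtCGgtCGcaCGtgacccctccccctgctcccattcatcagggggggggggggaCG
Zic5: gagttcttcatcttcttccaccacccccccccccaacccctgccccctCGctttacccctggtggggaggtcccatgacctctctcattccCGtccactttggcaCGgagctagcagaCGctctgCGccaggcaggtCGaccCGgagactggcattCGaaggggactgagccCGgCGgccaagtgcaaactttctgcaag

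The *Zic1* sequence held 24 CG dinucleotides in 200 bases, more than 94.4% of 32817 promoter windows of the same length, whose median was 4. The *Zic5* sequence held 10 CG dinucleotides, more than 70.8% of those windows. The window of *Zic4* lay wholly within an annotated exon of *Zic4* and is not shown. CCAAT, the binding motif of the NF-Y factor, was found 2 times in the *Zic1* sequence and 0 times in that of *Zic5*, searched on both strands. Of all windows, 28.4% held CCAAT. Neither sequence held the letters TATAAA (9.14% of windows), CCTGCTG, a core recognised by ZIC proteins (6.82%), or TGGGTGGTC, the motif of the GLI proteins (0.192%).

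Depth was similar across the mice, with 47887437 to 61826150 estimated counts in WT and 52664769 to 74482334 in KO. Values per mouse are CPM, the counts divided by the library total after TMM scaling, in the order of replicates 1 to 4. *Lrig1* was at 45.6, 13.5, 41.4 and 34.3 CPM in WT mice, while KO mice had 1.41, 4.15, 1.17 and 2.96 CPM, so the groups did not overlap (log2 fold change -3.80 ± 0.52 SE, edgeR adjusted p = 0.286). WT replicate 2 stood apart by its cortical genes, with a summed level of 2410 CPM over 12 cortical excitatory neuron markers against 236 to 1168 in the other 7 mice. That mouse also had the lowest summed level of the 14 striatal markers, 3997 CPM against 6232 to 12167. All 12 ependymal, all 12 neuroblast and all 11 stem cell and astrocyte markers passed the filter on low counts, as did all 15 septal, 14 striatal, 12 cortical, 14 meningeal and 8 oligodendrocyte markers, so their detection alone does not set the V-SVZ apart from neighbouring tissue.

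All 4 Zic genes were detected in every mouse, and each of them was several-fold higher in KO replicate 2, a female, than in any other mouse. *Zic1*, the most abundant member, was 143.3 CPM in that mouse and 12.7 to 38.5 CPM in the other 7. No Zic gene passed the test between KO and WT. Without KO replicate 2 the difference in *Zic1*, *Zic2* and *Zic4* was close to 0.

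**Figure D1:**
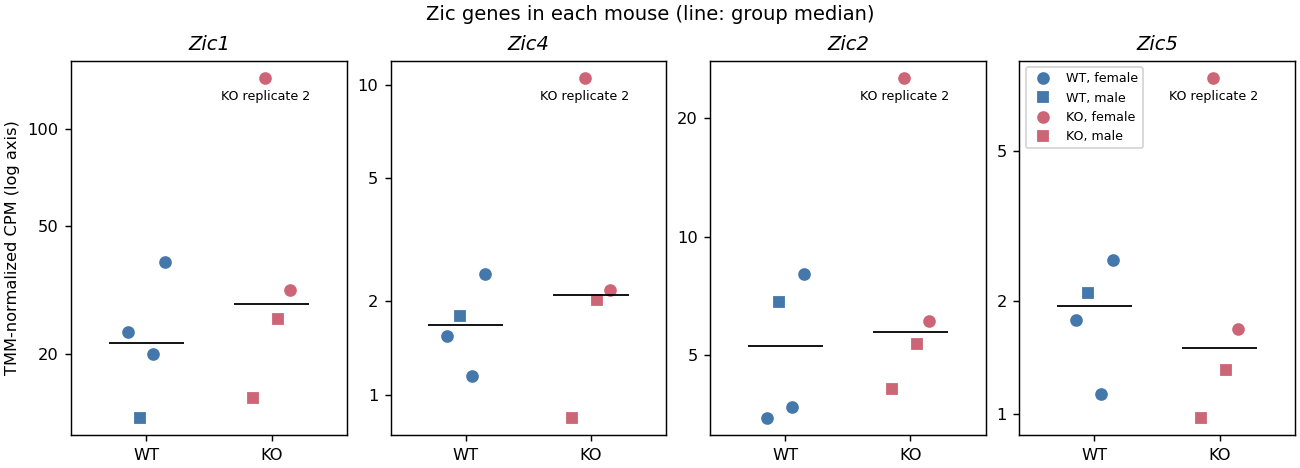
TMM-normalized CPM of each Zic gene on a log axis that differs between panels, with 1 point per mouse, circles for females, squares for males and a line at the group median. KO replicate 2 stands above the other 7 mice for all 4 genes, while the remaining 3 KO mice lie within or below the WT range.

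*Zic1* (ENSMUSG00000032368.15) was 23.4, 12.7, 20.0 and 38.5 CPM in WT and 14.6, 143.3, 25.6 and 31.6 CPM in KO. KO replicate 2 was 3.72-fold above the next highest mouse, WT replicate 4, and the other 3 KO mice lay inside the WT range. The group means were 23.6 ± 10.9 in WT and 53.8 ± 60.1 in KO (SD, n = 4 each). The group medians, 21.7 and 28.6 CPM, lay closer together than the means.

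*Zic4* (ENSMUSG00000036972.15), which shares its locus with *Zic1*, was 1.55, 1.80, 1.15 and 2.45 CPM in WT and 0.840, 10.6, 2.03 and 2.18 CPM in KO. KO replicate 2 was again the highest mouse, 4.32-fold above WT replicate 4, and KO replicate 1 was the lowest. The means were 1.74 ± 0.54 and 3.90 ± 4.48 CPM (SD, n = 4 each).

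*Zic2* (ENSMUSG00000061524.9) was 3.45, 6.82, 3.69 and 8.01 CPM in WT and 4.10, 25.3, 5.33 and 6.09 CPM in KO. The WT mice alone spanned the other 3 KO mice, and KO replicate 2 was 3.16-fold above the next mouse. The means were 5.49 ± 2.28 and 10.2 ± 10.1 CPM (SD, n = 4 each).

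*Zic5* (ENSMUSG00000041703.8), on the other side of the *Zic2* locus, was 1.78, 2.09, 1.13 and 2.57 CPM in WT and 0.976, 7.80, 1.31 and 1.69 CPM in KO. KO replicate 2 was 3.04-fold above the next mouse. The other 3 KO mice lay low in the WT range or below it. The means were 1.89 ± 0.60 and 2.94 ± 3.25 CPM (SD, n = 4 each).

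KO replicate 2 was the highest mouse for 4 of 4 Zic genes, beside 16.0% of all genes tested. Its values were 6.13-fold (*Zic1*), 5.87-fold (*Zic4*), 4.75-fold (*Zic2*) and 4.63-fold (*Zic5*) above the median of the other 7 mice. Among those 7 mice the highest value exceeded the lowest by 2.32-fold for *Zic2* and by 3.04-fold for *Zic1*, with *Zic4* and *Zic5* in between. Counting error is small beside the excess of KO replicate 2. The lowest count of any member was 43 for *Zic4* in KO replicate 1, with an exact Poisson 95% interval of 31.1 to 57.9 that covers counting error only. The same gene had 624 counts in KO replicate 2. Beside the spread among the other 7 mice, counting error in *Zic4* and *Zic5* is not small.

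Between the genotypes, the log2 fold change of KO over WT was 1.19 ± 0.68 for *Zic1*, 1.17 ± 0.69 for *Zic4*, 0.89 ± 0.60 for *Zic2* and 0.63 ± 0.64 for *Zic5* (± SE, edgeR quasi-likelihood test, n = 4 each). The adjusted p was 0.9998 for each of them in edgeR, after Benjamini-Hochberg adjustment over all genes tested. At the threshold of an adjusted p under 0.1, edgeR called 0 of 4 members, beside 0.00566% of all genes, a single gene named *Gm43079*. The same fit did not call *Lrig1* (edgeR adjusted p = 0.286), whose groups did not overlap, so it can miss a large change. The paper, with DESeq2, called *Lrig1* at this threshold. At an unadjusted p under 0.05 edgeR called 0 of 4, beside 1.88% of all genes (0.809% higher and 1.08% lower in KO). DESeq2 also called 0 of 4. The groups overlapped for all 4 members, whereas they did not overlap for 1.53% of all genes. Fold changes as large as that of *Zic5* or larger, in the KO direction, were fitted for 2.28% of all genes, and 49.7% of all genes had a log2 fold change above 0.

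An exact two-sided permutation test of the mean log2 CPM, for which 4 against 4 mice allow a smallest p of 0.0286, gave p = 0.457 for *Zic1*, 0.543 for *Zic2*, 0.60 for *Zic4* and 0.914 for *Zic5*. Adjusted over the members, these were 0.80 for *Zic1*, *Zic2* and *Zic4* and 0.914 for *Zic5* (exact permutation). The differences in mean log2 CPM were 0.72, 0.57, 0.58 and 0.16, in that order, and were smaller than the fitted fold changes for each gene.

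When KO replicate 2 was left out, the log2 fold change of *Zic1* moved to 0.02, that of *Zic4* to -0.042, that of *Zic2* to -0.086 and that of *Zic5* to -0.51. Leaving out any other single mouse kept all 4 fitted values above 0. Among females alone, a comparison of 3 WT with 2 KO mice that includes KO replicate 2, the log2 fold changes were 1.68 for *Zic1*, 1.89 for *Zic4*, 1.64 for *Zic2* and 1.38 for *Zic5*. With labelled sex as a covariate they were 1.32, 1.10, 0.84 and 0.57. No member passed the adjusted threshold in any of these fits. Among females alone, *Zic1*, *Zic2* and *Zic4* had an unadjusted p under 0.05 in edgeR, as did 5.31% of all genes, and the adjusted p of each was 0.844. With sex as a covariate *Zic1* did, beside 6.95% of all genes, with an adjusted p of 0.627. Without KO replicate 1, the mouse with the lowest *Zic4* and *Zic5*, *Zic1* and *Zic4* did, beside 3.05% of all genes.

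**Figure D2:**
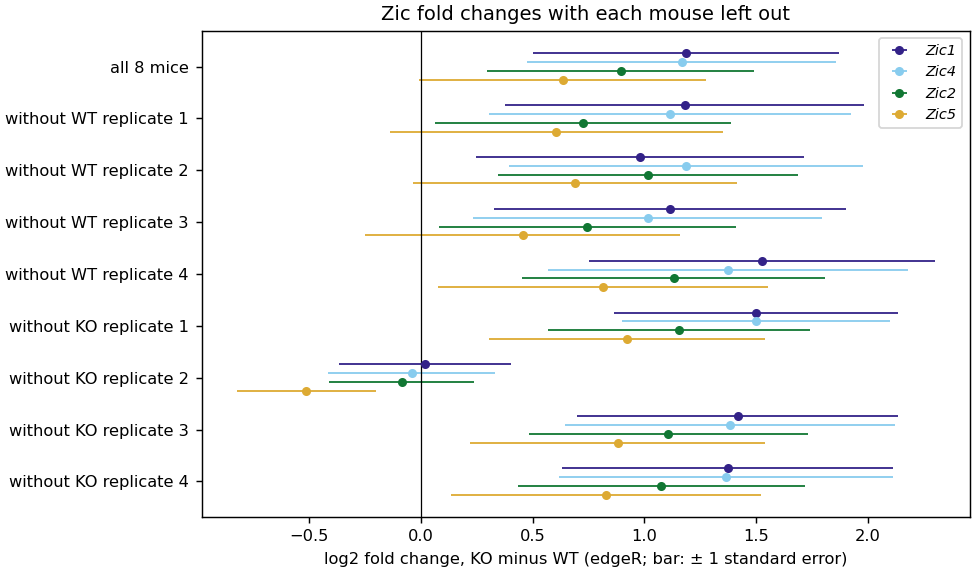
Log2 fold change of KO over WT for each Zic gene in edgeR, with all 8 mice (top row) and with each mouse left out in turn, where bars are ± 1 standard error and the vertical line marks 0. The values sit near or below 0 only in the row without KO replicate 2, where *Zic5* is lowest at -0.51.

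Levels were compared between the genes as TPM, which are scaled for transcript length. *Zic1* was 6.63, 4.17, 5.33 and 13.3 TPM in WT and 3.81, 41.3, 7.84 and 9.85 TPM in KO. *Zic2* was 2.12, 4.75, 1.90 and 5.39 TPM in WT and 2.16, 15.3, 3.36 and 3.73 TPM in KO. *Zic4* was 0.935, 2.16, 0.596 and 1.54 TPM in WT and 0.439, 6.37, 1.68 and 1.21 TPM in KO. The order within a mouse was almost constant, with *Zic1* highest, followed by *Zic2*, *Zic4* and *Zic5*.

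*Zic5*, the lowest, was 0.499, 0.683, 0.279 and 0.826 TPM in WT and 0.247, 3.38, 0.393 and 0.494 TPM in KO. *Zic2* exceeded *Zic4* in 8 of 8 mice and *Zic4* exceeded *Zic5* in 8 of 8. *Zic1* exceeded *Zic2* in 7 of 8 mice, the exception being WT replicate 2. The median ratio within a mouse was 2.55 for *Zic1* over *Zic2* in TPM and 2.01 for *Zic4* over *Zic5*. Across mice the ranges of neighbouring genes overlapped, so the order holds within a mouse and not between mice.

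**Figure D3:**
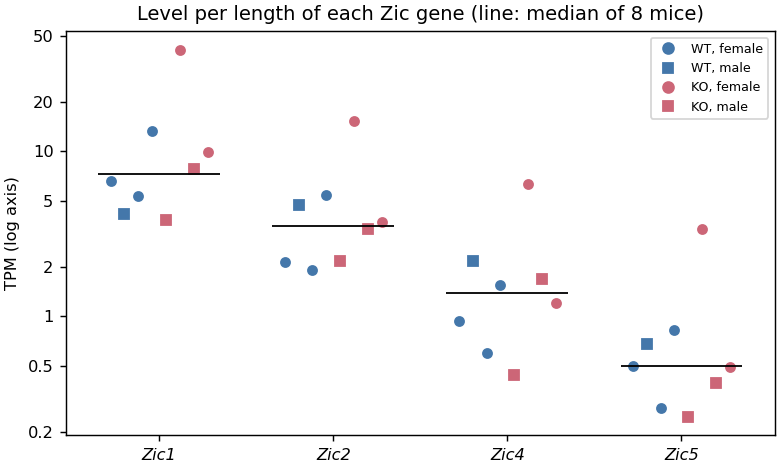
TPM of each Zic gene on a log axis, with 1 point per mouse in the order WT 1 to 4 and KO 1 to 4 and a line at the median of the 8 mice. The medians descend from 7.24 TPM for *Zic1* to 3.54 for *Zic2*, 1.38 for *Zic4* and 0.497 for *Zic5*, and KO replicate 2 is the top point of each gene.

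The reads of each gene were spread over 19 annotated transcripts, 3 of *Zic1*, 12 of *Zic4*, 2 of *Zic2* and 2 of *Zic5*. Zic1-201, the longer protein-coding transcript at 5606 nt, gave 57.9% to 70.1% of the *Zic1* TPM across mice. Zic1-202, at 2811 nt, gave 27.9% to 42.1%, so the larger share belonged to the same transcript in every mouse. Zic2-201 gave 94.0% to 100% of the *Zic2* TPM. Zic5-201 gave 100% of the *Zic5* TPM in 7 mice and 62.3% in KO replicate 2, where the short noncoding Zic5-202 held 24.0 reads. *Zic4* was divided more finely, with reads on 10 of its 12 transcripts. Its longest transcript, Zic4-201, gave 14.7% to 47.5% of the TPM, and in WT replicate 2 the 641 nt Zic4-207 gave 57.0% from 18.5 reads. Shares resting on so few reads are estimates with a wide counting error.

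Over all 8 mice, which include the high levels of KO replicate 2, the ratio of the paired genes varied less than their levels. Without that mouse the gap was narrower. The *Zic1* to *Zic4* ratio then ran from 7.04 to 17.4, while *Zic1* and *Zic4* levels spanned 3.04-fold and 2.91-fold. Whether a steadier ratio is particular to the pairs was not tested. *Zic1* was 15.1, 7.04, 17.4 and 15.8 times *Zic4* (CPM) in the WT mice and 17.4, 13.6, 12.6 and 14.5 times *Zic4* in the KO mice. KO replicate 2, the mouse with the highest levels, lay within the range of the others, and WT replicate 2 was the lowest. The mean ratio was 13.8 ± 4.62 in WT and 14.5 ± 2.07 in KO (SD, n = 4 each), a difference of 0.14 on the log2 scale with an exact permutation p of 0.886.

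*Zic2* was 1.94, 3.26, 3.26 and 3.12 times *Zic5* in WT and 4.20, 3.25, 4.06 and 3.61 times *Zic5* in KO. The WT values were lower except that KO replicate 2 fell just below 2 of them. The mean was 2.90 ± 0.64 in WT and 3.78 ± 0.44 in KO (SD, n = 4 each), a log2 difference of 0.41 with an exact permutation p of 0.0857, or 0.171 adjusted over the 2 ratios. Without KO replicate 2 the log2 difference was 0.48 with an adjusted p of 0.0571 (exact permutation), below the threshold of 0.1. With TPM in place of CPM it was 0.24 over all 8 mice, with an adjusted p of 0.857 (exact permutation). The call in CPM therefore rests on leaving out KO replicate 2. TPM without that mouse were not tested, so the part of the unit in this call is not known.

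The ratio of *Zic1* to *Zic2*, which crosses the pairs and was added after the values were seen, was 6.77, 1.86, 5.42 and 4.81 in WT and 3.57, 5.66, 4.81 and 5.19 in KO. WT replicate 2 was the lowest mouse for this ratio, as it was for the ratio of *Zic1* to *Zic4*. Of the 4 members, *Zic1* alone had its lowest CPM in that mouse.

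**Figure D4:**
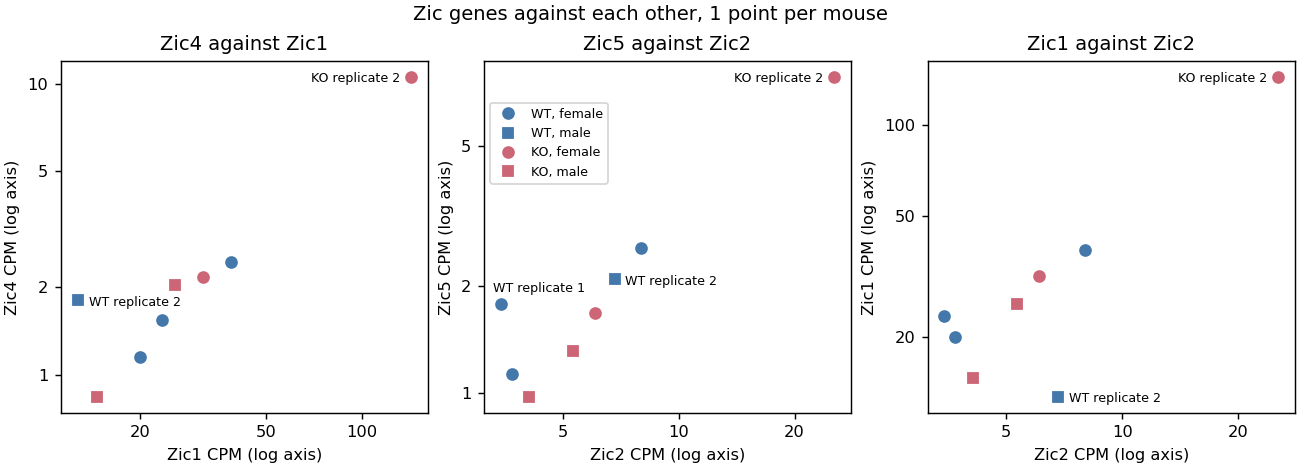
*Zic4* against *Zic1*, *Zic5* against *Zic2* and *Zic1* against *Zic2* in CPM on log axes, with 1 point per mouse, circles for females and squares for males. KO replicate 2 is at the top right of each panel, and WT replicate 2 lies left of the trend in the first panel and below it in the third.

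The 4 genes varied together between mice, but the strength of this relation depended on KO replicate 2. Over 8 mice Pearson's r of log2 CPM was 0.926 for *Zic1* and *Zic4* (Spearman's rho 0.857), with adjusted exact permutation p of 0.0099 and 0.0436. For *Zic2* and *Zic5* r was 0.934 (adjusted exact permutation p = 0.0099) and rho was 0.738 (adjusted exact permutation p = 0.0688). Across the pairs, *Zic4* correlated with *Zic2* at r = 0.946 and rho = 0.833 and with *Zic5* at r = 0.955 and rho = 0.810, each r with an adjusted exact permutation p of 0.0099 and each rho with 0.0436. *Zic1* correlated less closely with *Zic2*, at r = 0.848 and rho = 0.548, with adjusted exact permutation p of 0.0277 and 0.171. For *Zic1* and *Zic5*, r was 0.863 and rho 0.571, with adjusted exact permutation p of 0.0256 and 0.171. The p-values were adjusted over the 6 pairs.

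Over the other 7 mice, r was 0.674 for *Zic1* and *Zic4*, 0.708 for *Zic2* and *Zic5*, 0.748 for *Zic4* and *Zic2*, 0.803 for *Zic4* and *Zic5*, 0.423 for *Zic1* and *Zic5* and 0.336 for *Zic1* and *Zic2*. None of the 6 then passed an adjusted exact permutation p of 0.1, the lowest being 0.146. The fit was repeated without the 2 mice farthest from the median on the x axis, KO replicate 2 and a second mouse that differed by pair. For *Zic1* and *Zic4* the second was WT replicate 2 and r was 0.967. For *Zic2* and *Zic5* it was WT replicate 1 and r was 0.955. These second mice had the lowest *Zic1* to *Zic4* and *Zic2* to *Zic5* ratios, so their removal raised r and the values cannot be compared between pairs. For the others the second was WT replicate 2 or KO replicate 1, and r was 0.664 to 0.900. On deviations from the genotype means r was 0.829 to 0.974.

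The nearest protein-coding genes differed less between mice than the Zic genes, and *Plscr1* alone of those tested was highest in KO replicate 2, at 1.88 CPM against 1.36 to 1.70 CPM in the other 7 mice. On chromosome 9 the closest neighbours that could be tested were far away, *Tbc1d2b* at 1087 kb and *Plscr1* at 860 kb, and had log2 fold changes of 0.03 ± 0.17 and 0.15 ± 0.15 (SE, edgeR). *Adamts7*, at 1150 kb and below 0.5 CPM in every mouse, had 0.35 ± 0.50. On chromosome 14, *Clybl* at 54.6 kb and *Pcca* at 54.5 kb were steady, with 14.6 to 17.4 CPM and 23.4 to 28.1 CPM across mice and log2 fold changes of 0.03 ± 0.08 and 0.02 ± 0.08. *Gm5089*, at 5.68 kb from the pair and under 1 CPM in every mouse, had -0.48 ± 0.40. *Plscr5*, at 804 kb on chromosome 9, and *Gm10837*, at 10.7 kb on chromosome 14, did not pass the filter on low counts. *Clybl* and *Pcca* were 17.4 and 27.0 CPM in KO replicate 2, within the range of the other 7 mice. *Gm37477*, which lies within the *Zic1* and *Zic4* locus and was singled out after its values were seen, was 0.016 to 0.180 CPM in WT and 0.152 to 0.312 CPM in KO, with its lowest KO value in replicate 2.

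Genes known to mark the septum were high in the same mouse as the Zic genes. Of 15 septal markers, 10 were highest in KO replicate 2, or 66.7% beside 16.0% of all genes. Their summed level was 245 to 393 CPM in WT and 290 to 457 CPM in KO, with the highest sum in KO replicate 2, and none was at 0. The map of relative levels shows the Zic genes with the septal and ependymal markers. The part of septal tissue in the Zic values was not tested.

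**Figure D5:**
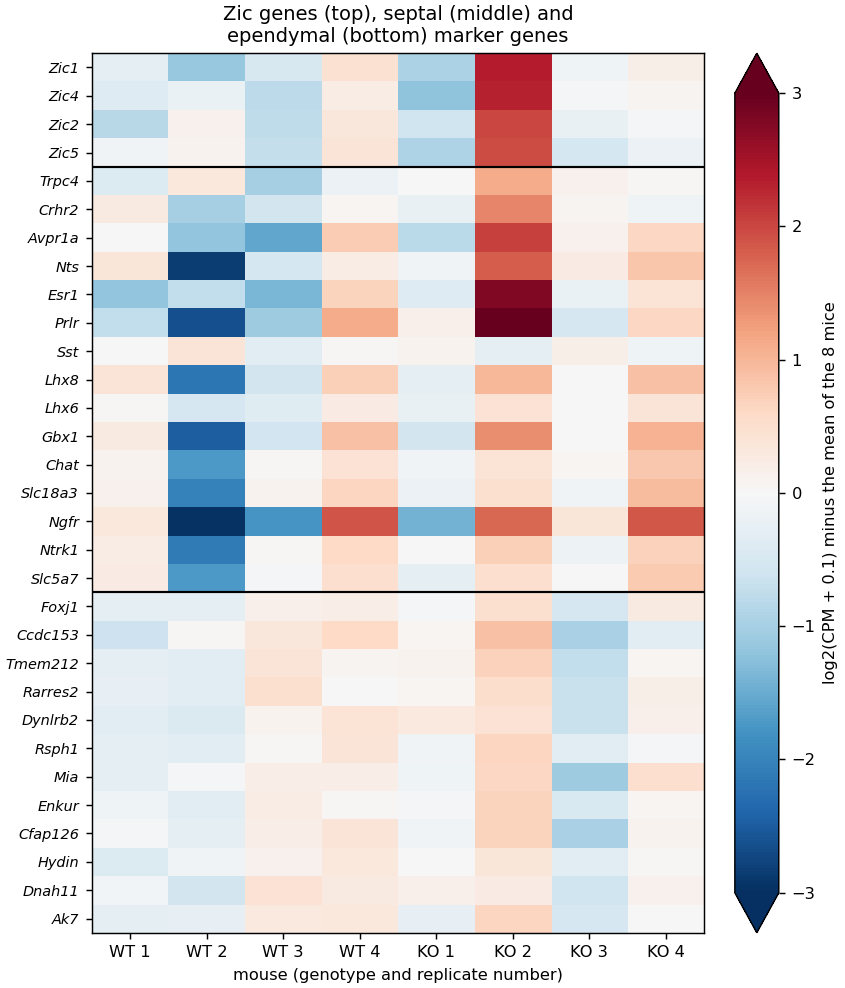
Each row is a gene and each column a mouse, and colour gives log2(CPM + 0.1) minus the mean of the 8 mice, from blue (lower) to red (higher). The column of KO replicate 2 is red for all 4 Zic genes at the top, for most septal markers in the middle and, more weakly, for the ependymal markers at the bottom, while WT replicate 2 is blue for many septal markers.

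*Esr1*, the estrogen receptor alpha gene, was 1.15, 1.60, 1.0 and 4.44 CPM in WT and 2.07, 19.4, 2.39 and 3.70 CPM in KO. *Prlr*, the prolactin receptor gene, was 1.98, 0.458, 1.56 and 7.46 CPM in WT and 3.79, 28.8, 2.35 and 5.22 CPM in KO. *Trpc4*, which encodes a cation channel abundant in the lateral septum, was 22.1 CPM in KO replicate 2 and 5.01 to 12.7 CPM in the other 7 mice. These 3 genes, named after their values were seen, were highest in the mouse with the highest Zic levels. *Esr1* and *Prlr* are also expressed in the hypothalamus and preoptic area, and *Prlr* in choroid plexus.

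The most abundant septal markers followed this less closely. *Sst*, the somatostatin gene, also expressed in interneurons throughout the forebrain, was 113 CPM in KO replicate 2 against 109 to 179 in the others, and its log2 fold change was -0.07 ± 0.16. *Slc5a7*, the choline transporter of cholinergic neurons, was 61.8 CPM in KO replicate 2 and highest, at 74.4 CPM, in KO replicate 4. *Lhx6*, a transcription factor of interneurons from the medial ganglionic eminence, was 39.9 CPM in KO replicate 2 and 20.7 to 38.5 CPM in the others. Between the genotypes, 14 of 15 septal markers had a log2 fold change above 0 with a median of 0.64, beside a median of -0.0009 over all genes. In edgeR, 0 of 15 passed the adjusted threshold and 0 reached an unadjusted p of 0.05, beside 0.00566% and 1.88% of all genes. These shares cannot be told apart with so few genes. The list median was 0.35 without KO replicate 2 and 0.30 without WT replicate 2.

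Ependymal markers, which mark the ciliated cells lining both ventricle walls, were highest in KO replicate 2 for 11 of 12 genes. This was 91.7%, beside 16.0% of all genes. Their summed level was 47.1 to 68.9 CPM in WT and 37.8 to 86.7 CPM in KO, so the excess in KO replicate 2 was smaller in proportion than that of the Zic genes. *Foxj1*, the regulator of motile cilia, was 18.9 CPM there and 9.57 to 16.2 CPM in the other 7 mice. *Rarres2* was 15.01 CPM against 6.55 to 14.5, and *Ak7* 10.8 CPM against 4.80 to 8.60. The median log2 fold change of the list was 0.08, or -0.13 without KO replicate 2.

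Of 8 choroid plexus markers tested, 4 were highest in KO replicate 2, or 50% beside 16.0% of all genes. The summed level was 17.3 to 66.3 CPM in WT and 36.2 to 93.2 CPM in KO, and *Prlr*, shared with the septal list, gave 28.8 of the 93.2 CPM. *Ttr*, the transthyretin gene that defines choroid plexus, was 7.72 CPM in KO replicate 2 and 1.53 to 29.3 CPM in the others, and *Clic6* was 42.4 CPM against 7.25 to 29.3. Kcnj13 and Slc4a5 were not tested. Of 8 thalamic and habenular markers tested, 4 were highest in KO replicate 2, or 50% beside 16.0% of all genes. Their sum in that mouse was 139 CPM against 40.3 to 104 in the other 7 mice. *Slc17a6*, the vesicular glutamate transporter of thalamic, hypothalamic and septal neurons, was 51.1 CPM there and 1.15 to 41.5 CPM in the others, and *Ntng1* was 20.2 CPM against 9.76 to 18.1. *Plekhg1* was 12.0 CPM in that mouse, within its range of 11.8 to 13.8 CPM. The part of these tissues in the Zic values was not tested.

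Among markers of the other known sites of Zic expression, few were highest in KO replicate 2. None of 14 meningeal fibroblast markers was highest there, beside 16.0% of all genes. Their summed level was 31.1 CPM in that mouse, within the 21.1 to 60.5 CPM of the others. *Col1a1*, *Col1a2* and *Dcn*, which encode extracellular matrix proteins, were 2.96, 11.8 and 5.48 CPM in that mouse. Of 5 cerebellar granule neuron markers tested, 1 was highest in KO replicate 2, or 20%, near the 16.0% of all genes. This was *Cbln1*, at 13.3 CPM beside 13.2 CPM in WT replicate 4. *Cbln3*, named after its values were seen, was 0.711 CPM in KO replicate 2, below only the 0.946 CPM of KO replicate 4. *Pax6* and *Etv1* were 7.80 and 44.7 CPM in KO replicate 2, *Etv1* lower than in any other mouse. Gabra6 and Barhl1, which define cerebellar granule neurons, did not pass the filter on low counts. The part of meningeal or cerebellar cells in the Zic values was not tested.

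None of 14 striatal, 12 cortical excitatory neuron or 8 oligodendrocyte markers was highest in KO replicate 2, beside 16.0% of all genes. The striatal sum, over genes of medium spiny neurons in the lateral wall such as *Ppp1r1b*, *Penk* and *Adcy5*, was 6232 CPM there, the lowest of the KO mice, whose highest was 9787. *Ppp1r1b* was 1169 CPM in that mouse and 762 to 2281 CPM in the others. The cortical sum was 267 CPM in KO replicate 2, and *Slc17a7*, the vesicular glutamate transporter of cortical neurons, was 24.2 CPM there against 5.45 to 1356 in the others. *Rasgrf2* was 102 CPM and *Lamp5* 66.3 CPM in that mouse. Over the groups, the median log2 fold change of the cortical markers was -0.81, and it was 0.69 without WT replicate 2. The oligodendrocyte sum, over myelin genes such as *Mbp* and *Mobp*, was 5956 CPM in KO replicate 2 and 7029 to 7665 CPM in the other 7 mice. None of these 34 genes passed the adjusted threshold or had an unadjusted p under 0.05 in edgeR, beside 0.00566% and 1.88% of all genes.

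Neuroblast markers of the V-SVZ were highest in KO replicate 2 more often than all genes, and stem cell and astrocyte markers about as often. Of 12 neuroblast markers, 5 were highest in KO replicate 2, or 41.7% beside 16.0% of all genes. The summed level was 609 to 640 CPM in WT and 596 to 702 CPM in KO, most of it from *Tubb3*, with the highest sum in KO replicate 2. *Dlx1*, a transcription factor gene of interneuron progenitors named after its values were seen, was 48.3 CPM in KO replicate 2 and 21.4 to 32.5 CPM in the other 7 mice. *Sox11* was 37.8 CPM and *Tubb3* 381 CPM in that mouse, against 25.0 to 43.4 and 298 to 355 CPM in the others, and *Nrep*, at 59.8 CPM, was lowest there. Of 11 stem cell and astrocyte markers, 2 were highest in KO replicate 2, or 18.2%. *Slc1a3*, the glutamate transporter GLAST, was 826 CPM there and 581 to 753 CPM in the others, while *Slc1a2* was 2502 CPM against 2407 to 3193. *Gfap* and *Thbs4* had an unadjusted p under 0.05, with log2 fold changes of -0.44 ± 0.18 and -0.55 ± 0.23 (SE), and neither passed the adjusted threshold in edgeR. They were 2 of 11 markers at that unadjusted p, beside 1.88% of all genes. *Thbs4*, a mark of stem cells in the V-SVZ, was 8.64 to 11.9 CPM in WT and 5.61 to 11.1 CPM in KO.

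None of the relatives of the Zic genes was highest in KO replicate 2. GLI-type zinc finger genes (*Gli1*, *Gli2*, *Gli3*, *Glis1*, *Glis2* and *Glis3*) were highest in KO replicate 2 for 0 of 6, beside 16.0% of all genes. So few genes cannot tell these shares apart. Their median log2 fold change was -0.10. *Gli3*, which acts mainly as a repressor in hedgehog signalling, was 9.43 CPM in that mouse, the lowest value, against 10.1 to 12.0 in the others. *Glis2* and *Glis3* were 7.41 and 4.23 CPM in KO replicate 2, inside their ranges. *Glis1*, named after its values were seen, was 0.542 CPM in that mouse, just below its highest value of 0.552 CPM in KO replicate 4. *Gli1*, a direct hedgehog target named after its values were seen, was 3.44 CPM in KO replicate 2 and 3.75 CPM in WT replicate 4, the mice that also held the highest and the next highest *Zic1*, and 0.953 to 1.64 CPM in the other 6.

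Of 12 hedgehog pathway genes tested, 4 were highest in KO replicate 2, or 33.3% beside 16.0% of all genes. The median log2 fold change of the list was -0.06. *Ptch1*, the hedgehog receptor and itself a target, was 96.4, 58.7, 88.2 and 144 CPM in WT and 75.9, 139, 75.5 and 106 CPM in KO. WT replicate 4 and KO replicate 2 were its highest mice. *Smo*, the signal transducer, was 24.4 CPM and *Sufu*, the inhibitor of GLI proteins, 18.0 CPM in KO replicate 2, both inside their ranges. *Shh*, the ligand, which was named after its values were seen, was 8.95 CPM in that mouse and 2.03 to 6.10 CPM in the other 7. *Dhh* and *Ihh* did not pass the filter on low counts. No gene of either list passed the adjusted threshold or had an unadjusted p under 0.05 in edgeR, beside 0.00566% and 1.88% of all genes.

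The genes whose pattern over the 8 mice was most like that of the Zic genes were found by the correlation of their log2 CPM with the mean z score of the 4 members, among 14430 genes with a mean CPM of 1 or more. Among the 5 closest were *Arl2* (r = 0.985), which encodes a small GTPase, *Limk2* (0.978), a kinase gene of the actin cytoskeleton, *Tceal3* (0.976) and *6720489N17Rik* (0.972). *Arl2* was 57.8 CPM in KO replicate 2 and 41.3 to 46.1 CPM in the others, a much smaller difference than that of the Zic genes. The 3 most opposite genes were *Cep128* (-0.990), *Gm10163* (-0.987) and *Arhgap10* (-0.986). *Cep128*, a centriole gene, was 8.24 CPM in KO replicate 2 and 11.5 to 15.2 CPM in the others, and *Gm10163* was listed at 0 there. Without KO replicate 2, r was -0.956 for *Cep128*, -0.938 for *Gm10163* and -0.962 for *Arhgap10*. The choice of the 5 closest genes leaned on that mouse. Without that mouse the 5 closest genes had r of 0.857 to 0.944, and the 5 closest genes chosen anew (*Lats2*, *Rmst*, *E330034L11Rik*, *Hsf1* and *Psen2*) shared 0 with the first 5.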

How the data were processed

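Libraries of polyA RNA from 8 mice were demultiplexed with bcl2fastq 2.20, per the submitters' processing notes, and the authors ran Salmon (version not given in the sources used here) against Gencode M29. They deposited estimated counts per gene, without normalization, and the TPM and estimated counts of each transcript, as Salmon gave them. How transcripts were summed to genes is not stated, but gene values equalled the transcript sums. Gene names and transcript assignments came from identifier tables and Gencode M21 (GRCm38), which named 94.8% of the identifiers, and promoter sequences came from RefSeq (GRCm38.p6).

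Estimated counts were rounded to whole numbers and compared with edgeR 4.0.16 in R 4.3.3, with filterByExpr, TMM scaling and the quasi-likelihood test, no covariate, and a threshold of 0.1 on p-values adjusted by Benjamini-Hochberg over 17669 genes. The script was tested on simulated data. Standard errors are the log2 fold change over the square root of F. Log2 CPM had a prior count of 2. DESeq2 1.42.0 was an alternative, and others were size factors, filters, a robust fit, sex, females alone, a replicate block and leaving out each mouse. Replicates of a group differed by more than sampling noise. The paper describes WT mice as littermate controls, and the litter of each mouse is not given in the sources used here, so p-values measure the spread between these mice.

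The members and gene lists were chosen with earlier results of these data known. The genes named were the members, *Lrig1*, the 3 most abundant genes of each list and any with an unadjusted p under 0.05, the 5 genes most like and 3 least like the Zic score, and the 2 nearest protein-coding genes on each side of a pair. Of the genes this rule selects, 2 are not reported here.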

Additional observations from a re-analysis of the deposited data

Results flagged for a closer look

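KO replicate 2 stood outside the spread of its group for each Zic gene, by Dixon's criterion for 4 samples at the 95% level. The criterion was applied to CPM without taking logs, a scale that widens the distance of a high value. Log values, on which the level and correlation tests rest, were not examined. The result for the Zic genes therefore holds for untransformed CPM only. *Zic1* was 143.3 CPM there and 14.6 to 31.6 CPM in the other 3 KO mice. *Zic4* was 10.6 CPM against 0.840 to 2.18, *Zic2* was 25.3 CPM against 4.10 to 6.09, and *Zic5* was 7.80 CPM against 0.976 to 1.69. The ratio of *Zic2* to *Zic5* in WT replicate 1, 1.94, lay below the 3.12 to 3.26 of the other WT mice by the same criterion. Of 12 groups examined, 5 were past it, or 41.7%. For normally distributed values chance passes about 1 group in 20. The groups share mice and are not independent, and KO replicate 2 gave 4 of the 5.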

How the results depend on the processing

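No Zic gene passed the adjusted threshold in edgeR under any alternative or in DESeq2. The number of genes past it over the whole table was 1 in the main edgeR fit and 13 with DESeq2. The paper reported many more genes with DESeq2 at this threshold. In edgeR the number was 2 without a filter on low counts and 0 with at least 10 counts in every mouse. It was 2 with sex as a covariate and 3 among females alone. When a mouse was left out it was 0 to 3 (0 without WT replicate 1 or WT replicate 4, 2 without WT replicate 3 and 3 without WT replicate 2). The cause of these differences was not tested. Over the 8 fits that each lacked a mouse, the fold change on the log2 scale ranged from -0.042 to 1.50 for *Zic4*, from -0.086 to 1.16 for *Zic2* and from -0.51 to 0.92 for *Zic5*, each lowest and below 0 without KO replicate 2, and from 0.02 to 1.53 for *Zic1*. The difference in mean log2 CPM ranged from -0.11 to 1.09 for *Zic4*, from -0.0097 to 0.86 for *Zic2* and from -0.48 to 0.51 for *Zic5*, which was also below 0, at -0.06, without WT replicate 3. The log2 difference in the ratio of *Zic1* to *Zic4* ranged from -0.15 (without WT replicate 2) to 0.28, and that of *Zic2* to *Zic5* from 0.23 to 0.48, the latter past the threshold without KO replicate 2, and with TPM they were 0.26 and 0.24. Pearson's r ranged from 0.674 to 0.993 for *Zic1* and *Zic4*, from 0.336 to 0.965 for *Zic1* and *Zic2*, from 0.423 to 0.980 for *Zic1* and *Zic5*, from 0.748 to 0.970 for *Zic4* and *Zic2*, from 0.803 to 0.981 for *Zic4* and *Zic5* and from 0.708 to 0.989 for *Zic2* and *Zic5*, each lowest and no longer past the threshold without KO replicate 2. That likeness ranking and the ratio of *Zic1* to *Zic2* were added after seeing the data.

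With the replicate number as a block, 0 genes passed the threshold and the log2 fold changes of *Zic1*, *Zic4*, *Zic2* and *Zic5* were 0.58, 0.58, 0.56 and 0.15. Same-numbered KO and WT mice did not deviate together, with correlations of 0.08, -0.22, -0.22 and 0.27 for numbers 1 to 4, so the samples share only a number as far as the labels tell. Of the numbers, 1 of 4 WT mice correlated best with its own number. With 4 mice a group, 1 mouse can set a group mean, and lowly expressed transcripts rest on few reads.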
